A study of Mus musculus with 18 samples.

Results

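The genes described here are the 175 protein-coding genes of mouse chromosome 2 that start between 115 and 145 Mb (mm10) and average at least 1 FPKM over 18 RNA-seq libraries. FPKM, fragments per kilobase of gene length and per number of fragments in the library, is the unit of the deposited table. The stretch holds 290 coding genes of any level. At 1 FPKM or more there are 11386 coding genes in the whole table, and 9 further ones of the stretch (Meis2, Bmf, Chac1, B2m, Bcl2l11, Polr1b, Nop56, Pcna and Jag1) were left out by name. The stretch was picked because its genes read lower in the cells named Arf-B and Arf-C than in the cells named Ctrlv2, so every ratio to Ctrlv2 below describes the choice and carries no test. The comparisons tested and read are Arf-B against Arf-C, day 8 against day 0 within a line, and the difference of those day responses between lines. On the log2 scale that difference is also the change between days of the ratio to Ctrlv2. Its p-value is therefore no separate support for groups of genes formed from those ratios. Calls against Ctrlv2 are given as counts beside their share of all genes, and nothing is read from them for the members.

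All libraries came from ES-E14TG2a, a mouse embryonic stem cell line derived from a blastocyst. There were 3 libraries each of Arf-B, Arf-C and Ctrlv2 cells at day 8 of a pancreatic differentiation protocol, and 3 of each at day 0. Per the labels the cells received activin A at 20 ng/mL with Matrigel from day 0, then retinoic acid with FGF10 at 10 ng/mL from day 4 until day 8. The genotype label reads wild type for every library. The series title names p19Arf, a product of Cdkn2a, but how Arf-B and Arf-C were made, and whether each is 1 clone, is not stated in the labels. Cdkn2a RNA was present in every library (40.1 to 46.3 FPKM in the Arf lines and 32.0 to 34.3 in Ctrlv2 at day 8, 1.67 to 2.37 and 1.89 to 3.36 at day 0). The labels do not say that replicates were separate cultures, so p-values measure only the spread between these libraries.

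A gene on an autosome is normally present as a maternal and a paternal copy, and the level of its mRNA depends on the copies present, on how strongly each is transcribed and on how fast the RNA decays. RNA sequencing of bulk cells reads the product of all of these over all cells. DNA copy number was not measured in these libraries, and fewer cells of a type cannot be told apart from less RNA per cell.

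The libraries held 10432590 to 33311220 reads on genes, of which 152597 to 505755 fell on the 175 genes. The summed level of 6 stem cell markers (Pou5f1, Nanog, Sox2, Zfp42, Esrrb, Klf4) was 1561 to 2037 FPKM over the 9 day 0 libraries. At day 8 it was 148 to 207 FPKM in Arf-B, 124 to 230 in Arf-C and 44.3 to 52.5 in Ctrlv2. The sum of 5 pancreas markers was 2.01 to 3.96 FPKM at day 8 and 0.0530 to 0.161 at day 0. Most of it at day 8 was Sox9, at 1.74, 1.72 and 1.92 FPKM in Arf-B, Arf-C and Ctrlv2. In the same order Pdx1 had 0.506, 0.363 and 0.137 FPKM and Ptf1a 0.390, 0.161 and 0.0175 FPKM. Ins2 had 0.489, 0.477 and 0 FPKM, and Nkx6-1, which went the other way, 0.111, 0.0386 and 0.245 FPKM. All but Sox9 were near the level of few reads, as 3 reads on a gene of 1 kb are worth 0.0930 to 0.282 FPKM. The sum of 6 extraembryonic endoderm markers at day 8 was 106 to 110 FPKM in Arf-B, 110 to 119 in Arf-C and 354 to 467 in Ctrlv2, and at day 0 it was 44.9 to 54.9, 45.9 to 51.5 and 127 to 146. The sum of 4 fibroblast markers at day 0, nearly all of it Thy1, was 2.37 to 2.99 FPKM in Arf-B, 1.88 to 2.36 in Arf-C and 14.8 to 16.7 in Ctrlv2. These marker sums differ between the groups compared below, and their part in the results was not tested.

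Promoter sequence was available for 159 of the 175 genes in RefSeq (GRCm38.p6), as 250 bases before and 50 bases after the annotated start, and for 139 of them that start lay within 300 bases of the one in the expression table. The sequences of 4 members are printed to let the different behaviours described below be seen beside the DNA: Vps16, lower in both Arf lines on both days; Zfp106, with ratios close to the median of the stretch; Ckmt1, lower at day 0 and higher at day 8; and Dtd1, higher on both days. They were chosen after their values were seen. Capitals mark each CG dinucleotide.
Vps16, chr2:130424070-130424369, plus strand: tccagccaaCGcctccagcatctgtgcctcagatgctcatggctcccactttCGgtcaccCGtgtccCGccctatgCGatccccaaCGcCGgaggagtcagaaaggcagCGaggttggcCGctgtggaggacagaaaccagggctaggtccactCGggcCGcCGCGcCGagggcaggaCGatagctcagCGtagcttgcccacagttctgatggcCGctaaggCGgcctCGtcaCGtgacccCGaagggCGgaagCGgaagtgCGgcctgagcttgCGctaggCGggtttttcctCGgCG
Zfp106, chr2:120563810-120564109, minus strand: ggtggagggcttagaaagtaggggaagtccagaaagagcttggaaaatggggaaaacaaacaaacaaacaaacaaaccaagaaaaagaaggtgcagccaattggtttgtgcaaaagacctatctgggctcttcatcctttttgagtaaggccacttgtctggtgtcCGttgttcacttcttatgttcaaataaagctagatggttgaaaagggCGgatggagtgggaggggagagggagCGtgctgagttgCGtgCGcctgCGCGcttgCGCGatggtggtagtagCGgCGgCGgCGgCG
Ckmt1, chr2:121357526-121357825, plus strand: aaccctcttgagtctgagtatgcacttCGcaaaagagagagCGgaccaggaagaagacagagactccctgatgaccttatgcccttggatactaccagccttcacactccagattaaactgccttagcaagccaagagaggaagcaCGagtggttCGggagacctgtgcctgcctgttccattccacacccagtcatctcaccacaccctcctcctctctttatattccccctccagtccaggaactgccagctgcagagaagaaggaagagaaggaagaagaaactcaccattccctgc
Dtd1, chr2:144599703-144600002, plus strand: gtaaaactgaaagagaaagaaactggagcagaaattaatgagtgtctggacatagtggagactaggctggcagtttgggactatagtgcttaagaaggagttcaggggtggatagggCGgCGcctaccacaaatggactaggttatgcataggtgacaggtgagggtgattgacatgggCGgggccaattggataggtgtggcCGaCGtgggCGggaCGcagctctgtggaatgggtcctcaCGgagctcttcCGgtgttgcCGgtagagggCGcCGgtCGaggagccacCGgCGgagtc
The window of Vps16 holds 28 CG dinucleotides, that of Dtd1 15, that of Zfp106 14 and that of Ckmt1 4. CG reads the same on both strands, so a single pass counts both. The median was 23 CG over the 159 members and 7 over all 32851 promoters of 300 bases, and 59.7% of members against 26.5% of all promoters held at least 20, a minimum set after the counts were seen. The set of all promoters was not filtered by expression or gene type, whereas the members are coding genes with at least 1 FPKM. These sets are not matched, so the difference is not read as a trait of the stretch. Among the 119 matched genes that were lower in all 4 comparisons with Ctrlv2 the median was 23, among the 15 that were lower at day 0 and not at day 8 it was 19, and among the 11 with the opposite pattern it was 24.

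The typical gene of the stretch stood at 0.70 of its Ctrlv2 level in both Arf lines and on both days. The median ratio of group means was 0.700 in Arf-B cells and 0.702 in Arf-C cells at day 8, and 0.695 in Arf-B cells and 0.711 in Arf-C cells at day 0. Over the 11202 other coding genes outside the stretch with at least 1 FPKM it was 1.00, 1.01, 1.01 and 1.02 in the same order. Ratios below 1 were found for 152, 152, 156 and 153 of the 175 genes, where 49.6%, 49%, 48.6% and 47.3% of the other genes lay below 1. Read library by library against the Ctrlv2 mean of the same day, the median was 0.682 to 0.717 in the 12 Arf libraries and 0.977 to 1.01 in the 6 Ctrlv2 libraries. No Arf library came near a Ctrlv2 library, and the Arf libraries differed among themselves by about as much as the Ctrlv2 libraries did. The plot of library medians shows this beside the same median over all other genes.

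**Figure D1:**
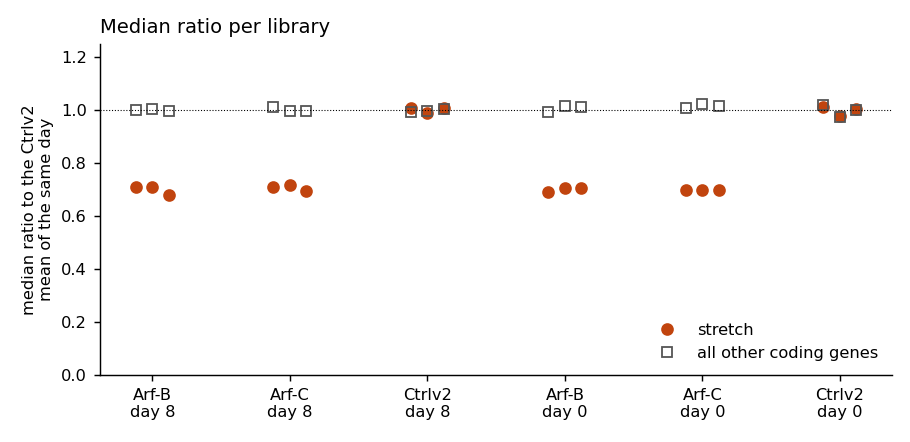
Median over genes of the ratio of each library to the Ctrlv2 mean of the same day (y axis, linear scale, 1 point per library), for the 175 genes of the stretch and for the 11202 other coding genes. The 12 Arf libraries lie at 0.682 to 0.717 for the stretch, below the Ctrlv2 libraries at 0.977 to 1.01, while the other genes sit near 1 in every library.

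All 6 Arf libraries lay below all 3 Ctrlv2 libraries for 121 of the 175 genes at day 8 and for 116 at day 0 (22.5% and 22.9% of the other coding genes). The opposite, all 6 above all 3, held for 7 genes at day 8 and 4 at day 0 (21.8% and 22.6% of the other genes). At an adjusted p under 0.05 the fit across all genes called 125 members lower in Arf-B cells and 124 in Arf-C cells at day 8, and 123 and 113 at day 0. Of all 17200 genes tested, 16.9%, 16.8%, 20% and 21.5% were called lower. Members called higher numbered 8, 9, 6 and 7 (16.3%, 16.8%, 19.1% and 21.2% of all genes). Since the stretch was picked on these comparisons, nothing is read from these counts.

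The lower level did not begin at 115 Mb. The neighbouring 100 to 115 Mb, set apart after its values were seen, holds 48 coding genes whose median ratios were 0.699 in Arf-B cells and 0.698 in Arf-C cells at day 8, and 0.773 and 0.748 at day 0; 35 of these 48 were below 1 in all 4 comparisons and 0 were at or above 1 in all 4. Over the 683 genes of chromosome 2 outside 100 to 145 Mb the medians were 1.01, 1.02, 1.04 and 1.06. Within the stretch the 5 Mb windows ran from a day 8 median in Arf-B of 0.656 (120 to 125 Mb, 39 genes) to 0.847 (135 to 140 Mb, 5 genes). The window from 145 to 150 Mb was back at 1.09 in Arf-B cells and 1.11 in Arf-C cells at day 8, and at 1.07 and 1.16 at day 0. Both lines followed the same course along the chromosome, as the plot of ratios by position shows. Over 20 chromosomes, with chromosome 2 taken without the stretch, the medians ranged from log2 -0.16 to 0.20, and the lowest each time was that of chromosome 14, where 114 genes between 60 and 80 Mb had a median log2 ratio of -0.99 in Arf-B cells and -0.98 in Arf-C cells at day 8, and -1.06 and -1.05 at day 0. That interval was chosen after its values were seen.

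**Figure D2:**
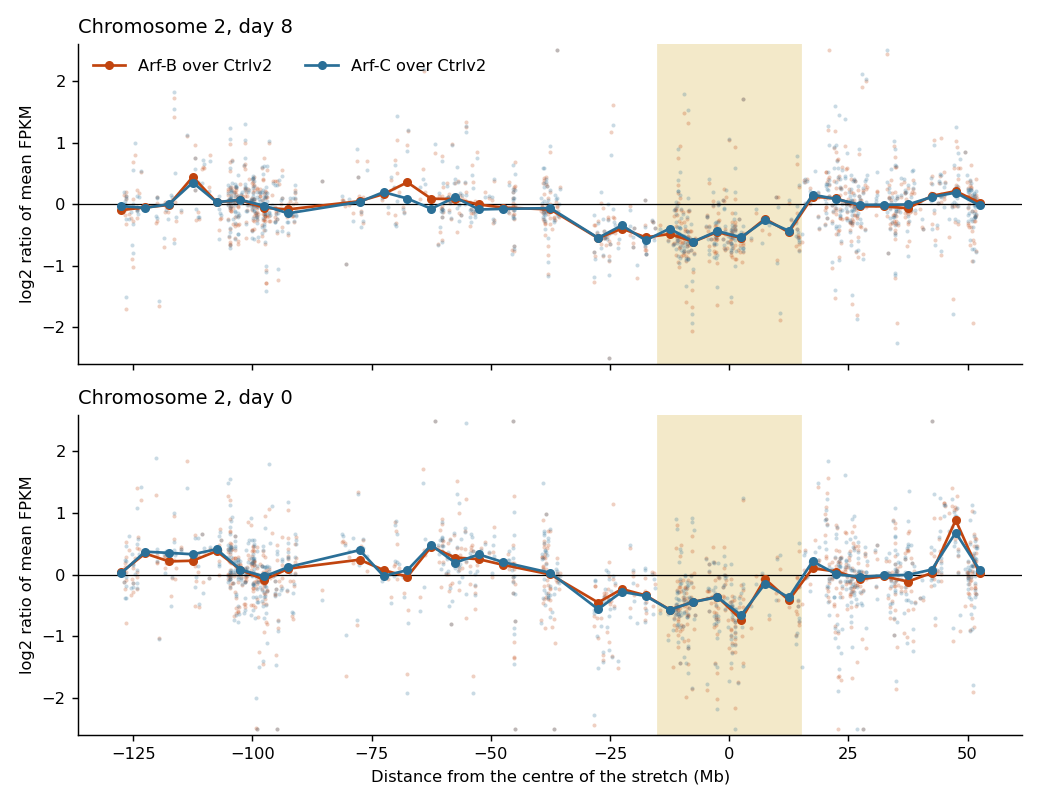
Log2 ratio of mean FPKM of Arf-B over Ctrlv2 and of Arf-C over Ctrlv2 (y axis) for coding genes of chromosome 2, by distance in Mb from the centre of the stretch (x axis), at day 8 above and day 0 below. Points are genes, drawn at 2.5 or -2.5 where they lie beyond, lines join medians of 5 Mb windows with at least 5 genes, and the shaded band is the stretch. The lower level starts before the band, after a gap from -35.6 to -28.4 Mb, and ends near the upper edge of the band. The gap holds no plotted genes, which are only coding genes with at least 1 FPKM.

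The genes nearest the ends showed no clean step at 115 or at 145 Mb. On the low side the last genes before 115 Mb were Aqr, an RNA helicase of the spliceosome, with ratios of 0.819 and 0.814 in the Arf-B and Arf-C lines at day 8 and 0.705 and 0.644 at day 0, Zfp770 (0.688, 0.665, 1.02 and 0.954 in that order) and Dph6 (0.761, 0.761, 0.897 and 0.859). The first inside were BC052040 (0.795, 0.758, 0.670 and 0.647), Spred1, an inhibitor of Ras-ERK signalling (0.671, 0.658, 0.506 and 0.480), and Fam98b (0.765, 0.743, 0.687 and 0.645). On the high side the last inside were Sec23b, Smim26 and Dtd1. Sec23b had 0.641, 0.655, 0.569 and 0.612 and Smim26 had 0.688, 0.666, 0.585 and 0.594, while Dtd1, the next gene along, had 1.21, 1.24, 1.30 and 1.43. Beyond 145 Mb followed Slc24a3 (0.652, 0.715, 0.723 and 0.355, at a mean of 1.92 FPKM), Rin2 (1.31, 1.29, 1.05 and 1.25) and Naa20 (0.996, 1.01, 0.962 and 0.958). At the level boundary the genes just under 1 FPKM were Pdyn, Hypk and Pla2g4e (0.901, 0.972 and 0.997 FPKM) and those just over were Terb2, Ovol2 and Exd1 (1.05, 1.07 and 1.10 FPKM).

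The ratios were spread about their lower centre much as the ratios of other genes were spread about 1. The interquartile range of the log2 ratio was 0.42 in Arf-B cells and 0.42 in Arf-C cells at day 8, and 0.59 and 0.55 at day 0, against 0.45, 0.45, 0.56 and 0.61 over the other coding genes. Ratios within 0.25 of 0 on the log2 scale were held by 32, 35, 35 and 40 of the 175 genes (54.6%, 54.4%, 45.9% and 42.6% of the other coding genes). Ratios of 0.5 or less were held by 9, 8, 24 and 26 (2.63%, 3.04%, 6.41% and 6.61% of the others). Split by mean level, the median log2 ratio of Arf-B at day 8 was -0.44 among the 58 lowest genes (1.05 to 5.50 FPKM), -0.53 among the middle 58 and -0.56 among the highest 59 (13.6 to 303 FPKM). At day 0 the same 3 groups had -0.63, -0.49 and -0.50. The lowest group also had the widest ranges, with an interquartile range of 0.91 in Arf-B at day 0 against 0.49 in the highest group.

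**Figure D3:**
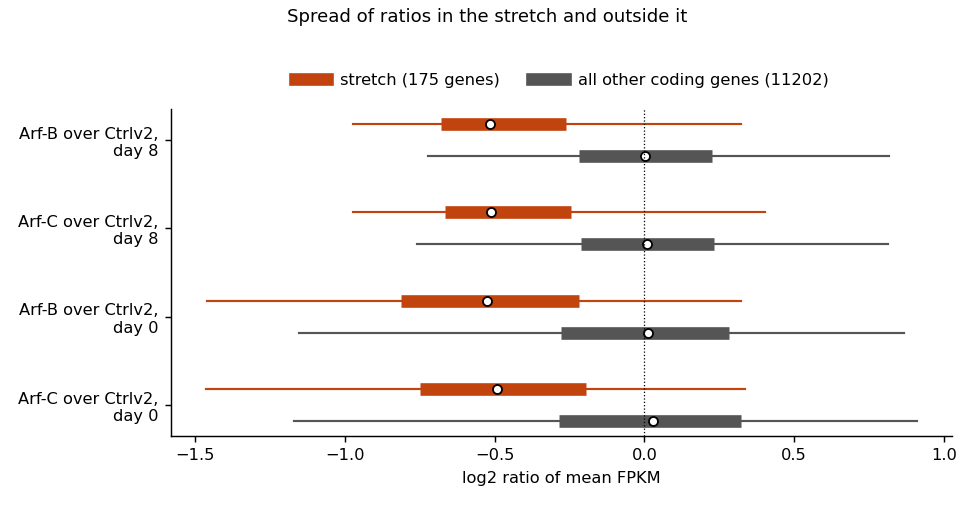
Log2 ratio of mean FPKM (x axis) in the 4 comparisons of an Arf line with Ctrlv2, for the 175 genes of the stretch and the 11202 other coding genes. Circles are medians, thick bars the interquartile range and thin lines the 5th to 95th percentile; the bars of the stretch are shifted to medians of -0.49 to -0.52 and are about as wide as those of the other genes.

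Genes whose 4 ratios lay closest to the medians show the common pattern at high level. Snrpb, which encodes the Sm protein B of the spliceosome, had 91.9, 95.2 and 88.6 FPKM in Arf-B cells and 102, 95 and 91.9 in Arf-C cells at day 8, against 135, 140 and 144 in Ctrlv2. The day 0 values were 157, 159 and 178 FPKM in Arf-B cells and 145, 176 and 153 in Arf-C cells, against 229, 230 and 212 in Ctrlv2. Neither day showed any overlap between the Arf libraries and Ctrlv2. The highest gene of the stretch, Pdia3, a disulfide isomerase that helps glycoproteins fold in the endoplasmic reticulum, had 340, 343 and 360 FPKM in Arf-B cells and 373, 360 and 353 in Arf-C cells at day 8, against 461, 505 and 523 in Ctrlv2. At day 0 the values were 154, 188 and 171 in Arf-B cells and 155, 186 and 178 in Arf-C cells, against 280, 257 and 274 in Ctrlv2. Pdia3 rose with differentiation by log2 1.02 in Arf-B, 1.07 in Arf-C and 0.87 in Ctrlv2 while Snrpb fell by 0.83, 0.71 and 0.67, and in both genes the Arf lines stayed below Ctrlv2 at either end. Zfp106, an RNA-binding zinc finger protein, Itpa, which clears inosine triphosphate from the nucleotide pool, and Cds2, which makes CDP-diacylglycerol for phospholipid synthesis, completed this group, with ratios of 0.631 to 0.788.

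Among members with at least 5 FPKM the lowest mean ratio belonged to Prnp, the prion protein gene. Prnp had 12.3, 12.7 and 14.8 FPKM in Arf-B cells and 13.8, 16.3 and 17.1 in Arf-C cells at day 8, against 19.7, 22.0 and 25 in Ctrlv2, and 1.74, 2.27 and 2.73 in Arf-B cells and 2.23, 2.49 and 1.93 in Arf-C cells at day 0, against 8.49, 6.01 and 7.98 in Ctrlv2. Its ratios were thus 0.597 and 0.707 at day 8 and 0.300 and 0.296 at day 0, so it lay further below Ctrlv2 in the stem cell state. The same held for Cpxm1, a secreted member of the carboxypeptidase family, with ratios of 0.567 and 0.595 at day 8 and 0.352 and 0.372 at day 0. The change between days was larger in both Arf lines than in Ctrlv2 for Prnp (difference of log2 changes 0.68 for Arf-B, adjusted p = 0.011, and 0.92 for Arf-C, adjusted p = 0.00132) and for Cpxm1 (0.60 and 0.60, adjusted p = 0.000468 and 0.000412; limma with Benjamini-Hochberg adjustment over all 17200 genes). Both differences share the 6 Ctrlv2 libraries and are not independent of each other.

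Among the others at the low end Vps39 and Shld1 had similar ratios on both days, while Chp1 and Rrbp1 did not. Vps39, a subunit of the HOPS complex that tethers endosomes to lysosomes, had ratios of 0.566 and 0.586 at day 8 and 0.562 and 0.562 at day 0. Shld1, a subunit of the shieldin complex of DNA double-strand break repair, had 0.519 and 0.659 at day 8 and 0.502 and 0.555 at day 0. Chp1, a calcium-binding partner of sodium-proton exchangers, had 0.495 and 0.514 at day 8 and 0.627 and 0.627 at day 0, and its day response was lower in the Arf lines than in Ctrlv2 (differences -0.33 and -0.28, adjusted p = 0.0221 and 0.0435). Rrbp1, a ribosome-binding protein of the endoplasmic reticulum, had 0.625 and 0.702 at day 8 and 0.506 and 0.460 at day 0, with a difference that passed the test in Arf-C (0.55, adjusted p = 0.00355) and not in Arf-B (0.28, adjusted p = 0.12). Below 5 FPKM 4 genes had a lower mean of the 4 log2 ratios than Prnp, named after their values were seen: Gpat2, a mitochondrial glycerol-3-phosphate acyltransferase (0.320, 0.392, 0.248 and 0.221), Terb2, a meiotic telomere protein (0.313, 0.289, 0.277 and 0.280), Tmem62 (0.333, 0.398, 0.253 and 0.368), and Kcnip3, a calcium-binding protein that interacts with potassium channels (0.517, 0.566, 0.332 and 0.355).

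Sorted gene by gene, 132 of the 175 genes followed the lower level, with a ratio below 1 in all 4 comparisons (20.9% of the other coding genes did). A ratio of at least 1 in all 4 was held by 5 genes (22.8% of the others), at day 8 only by 15 (17.3%), at day 0 only by 11 (18.4%), and 12 were mixed (20.5%). When each of the 18 libraries was left out in turn, 119 of the 132 followers kept their class throughout, as did 4 of the 5, 8 of the 15, 6 of the 11 and 2 of the 12. The mixed genes included Ivd, Exd1, Ppip5k1, Zfp661, Zc3h8, Gm10762, Slc20a1, Ebf4, Mkks, Slx4ip and Ndufaf5.

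The 5 genes at or above the Ctrlv2 level in all 4 comparisons were Dtd1, Eid1, Nusap1, Fermt1 and Slc27a2. Dtd1, an enzyme that removes D-amino acids from tRNA, had 6.68, 6.79 and 6.00 FPKM in Arf-B cells and 6.55, 6.46 and 6.82 in Arf-C cells at day 8, against 5.46, 5.52 and 5.07 in Ctrlv2. At day 0 it had 8.53, 8.81 and 8.95 FPKM in Arf-B cells and 8.53, 10.8 and 9.63 in Arf-C cells, against 7.40, 6.03 and 6.80 in Ctrlv2. All Arf libraries lay above all Ctrlv2 libraries on both days, although Sec23b and Smim26, the 2 members just before it, were at 0.569 to 0.688. Eid1, an inhibitor of the coactivator EP300, had 18.9, 19.8 and 17.2 FPKM in Arf-B cells and 19.3, 18.9 and 20.4 in Arf-C cells at day 8, against 13.8, 15.4 and 14.8 in Ctrlv2. At day 0 its ratios were 1.13 and 1.12, with 11.2 FPKM in the lowest library of each Arf line inside the Ctrlv2 range of 10.7 to 11.3.

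Nusap1, a spindle protein that binds microtubules near chromosomes, overlapped with Ctrlv2 at day 8, with 13.6, 14.1 and 13.8 FPKM in Arf-B cells and 14.9, 13.6 and 14.3 in Arf-C cells, against 14.1, 12.3 and 12.5 in Ctrlv2. At day 0 its ratios were 1.23 and 1.34. Its neighbour on the other strand, Oip5, which takes part in loading the centromeric histone, overlaps its start by coordinates and had ratios of 0.620 and 0.545 at day 8 and 0.869 and 0.898 at day 0. Fermt1, the integrin adaptor kindlin-1, was low, at 2.57 FPKM in both Arf lines against 0.790 in Ctrlv2 at day 8, and 0.345 and 0.352 FPKM against 0.149 at day 0. Slc27a2, a very-long-chain acyl-CoA synthetase, had 1.04 and 1.15 at day 8 and 1.36 and 1.16 at day 0, and left its class without replicate 3 of Arf-B, or without replicate 2 or replicate 3 of Ctrlv2, at day 8. Fermt1 and Slc27a2 fall under the 5 FPKM of the naming rule and were named after their values were seen.

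The 15 genes below Ctrlv2 at day 0 but not at day 8 were Dnajc17, Ppp1r14d, Spint1, Rhov, Itpka, Capn3, Ckmt1, Mertk, Ckap2l, Tgm3, Spef1, Cenpb, Tasp1, Kif16b and Ovol2. For genes sorted this way the direction of the difference of day responses follows from the class. The p-values given with it are no separate support for the class. Ckmt1, the mitochondrial creatine kinase, had 2.41, 3.25 and 3.12 FPKM in Arf-B cells and 2.98, 3.11 and 4.01 in Arf-C cells at day 8, against 1.07, 0.905 and 1.55 in Ctrlv2. The day 0 values were 9.78, 9.32 and 11 FPKM in Arf-B cells and 8.66, 10.2 and 8.76 in Arf-C cells, against 20.7, 19.7 and 22.4 in Ctrlv2. The groups do not overlap on either day and their order turns round: Ckmt1 fell in all 3 lines, by log2 1.49, 1.23 and 3.35 in Arf-B, Arf-C and Ctrlv2. Its day response was higher in Arf-B than in Ctrlv2 by 1.85 (SE 0.168, adjusted p = 1.04e-06) and in Arf-C by 2.12 (SE 0.168, adjusted p = 2.27e-07). The size of these changes is on the log2(FPKM + 1) scale and depends on the pseudocount at the day 8 level of Ctrlv2.

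Itpka, which phosphorylates inositol trisphosphate, also fell in all 3 lines, by log2 1.54 in Arf-B, 1.84 in Arf-C and 3.38 in Ctrlv2. It had 1.97, 1.39 and 2.14 FPKM in Arf-B cells and 0.998, 0.836 and 2.28 in Arf-C cells at day 8, against 0.892, 0.984 and 0.999 in Ctrlv2, so Arf-C overlapped with Ctrlv2. At day 0 it averaged 7.22 ± 0.669 FPKM in Arf-B cells and 7.21 ± 0.426 in Arf-C cells, against 19.4 ± 1.48 in Ctrlv2 (SD, n = 3 each). The difference of day responses was 1.84 for Arf-B and 1.54 for Arf-C (adjusted p = 2.17e-05 and 9.3e-05). Capn3, a calpain protease, had the same order at lower level, 0.517 and 0.634 FPKM against 0.185 in Ctrlv2 at day 8 and 1.62 and 1.35 against 3.41 at day 0 (differences 1.10 and 1.35, adjusted p = 0.000448 and 6.63e-05). For Itpka and Capn3 the size of the changes is on the log2(FPKM + 1) scale and depends on the pseudocount at these day 8 levels.

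Spint1, an inhibitor of the proteases matriptase and HGF activator, had 41.3, 40.3 and 40.3 FPKM in Arf-B cells and 42.0, 41.5 and 40.0 in Arf-C cells at day 8, against 34.1, 36.3 and 36.7 in Ctrlv2. At day 0 it had 36.2, 39.4 and 38.1 FPKM in Arf-B cells and 37.8, 36.1 and 36.9 in Arf-C cells, against 60, 52.6 and 59.2 in Ctrlv2. The changes of Spint1 were small in the Arf lines (log2 0.10 in Arf-B, adjusted p = 0.12, and 0.15 in Arf-C, adjusted p = 0.0204, which exceeded 0.05 in 3 of the 18 fits that left out 1 library, up to 0.0647 without replicate 1 of Arf-C at day 8) and it fell by 0.66 in Ctrlv2. The differences of day responses were 0.76 and 0.82 (adjusted p = 2.79e-06 and 1.18e-06).

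Spint1 lies between 2 other members of this class, Ppp1r14d, an inhibitor of protein phosphatase 1, and Rhov, a small GTPase, at chr2:119218119-119271272. This is the only run of 3 neighbouring members of 1 class other than the followers, and it was noticed in the data. It depends on Rhov, which kept its class in 16 of the 18 fits that left out 1 library. In the rest, each lacking a day 8 library of Ctrlv2 or of Arf-B, the run of 3 was lost. Ppp1r14d had ratios of 1.69 and 1.85 at day 8 and 0.509 and 0.469 at day 0 (differences of day responses 1.35 and 1.54, adjusted p = 9.9e-06 and 2.35e-06). Rhov had 1.01 and 1.32 at day 8 and 0.606 and 0.574 at day 0 (0.65 and 1.01, adjusted p = 0.0109 and 0.000407). The members on either side, Zfyve19 (0.710, 0.698, 0.695 and 0.763) and Vps18 (0.520, 0.559, 0.596 and 0.643), followed the lower level on both days. Dnajc17, a J-domain cochaperone whose annotation overlaps Zfyve19 on the other strand, had ratios of 1.24 and 1.16 at day 8 and 0.670 and 0.694 at day 0 (differences 0.82 and 0.70, adjusted p = 0.00113 and 0.00303).

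Cenpb, which binds centromeric satellite DNA, rose in the Arf lines by log2 1.04 and 1.24, while in Ctrlv2 its change was 0.18 (adjusted p = 0.0969). It had 26.5, 27.2 and 24.8 FPKM in Arf-B cells and 30.0, 28.9 and 26.2 in Arf-C cells at day 8, against 27.0, 22.6 and 24.9 in Ctrlv2, where the groups overlap. The day 0 values were 11.4, 11.5 and 13.7 FPKM in Arf-B cells and 10.8, 13.0 and 10.5 in Arf-C cells, against 21, 23.8 and 20.6 in Ctrlv2 (differences of day responses 0.86 and 1.06, adjusted p = 0.000126 and 1.63e-05). Spef1, a microtubule-bundling protein, encloses Cenpb on the same strand and had ratios of 1.89 and 1.5 at day 8 and 0.223 and 0.160 at day 0. Reads of the pair may not be separable in the deposited counts. The scatter of ratios at both days places these genes at its upper left.

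**Figure D4:**
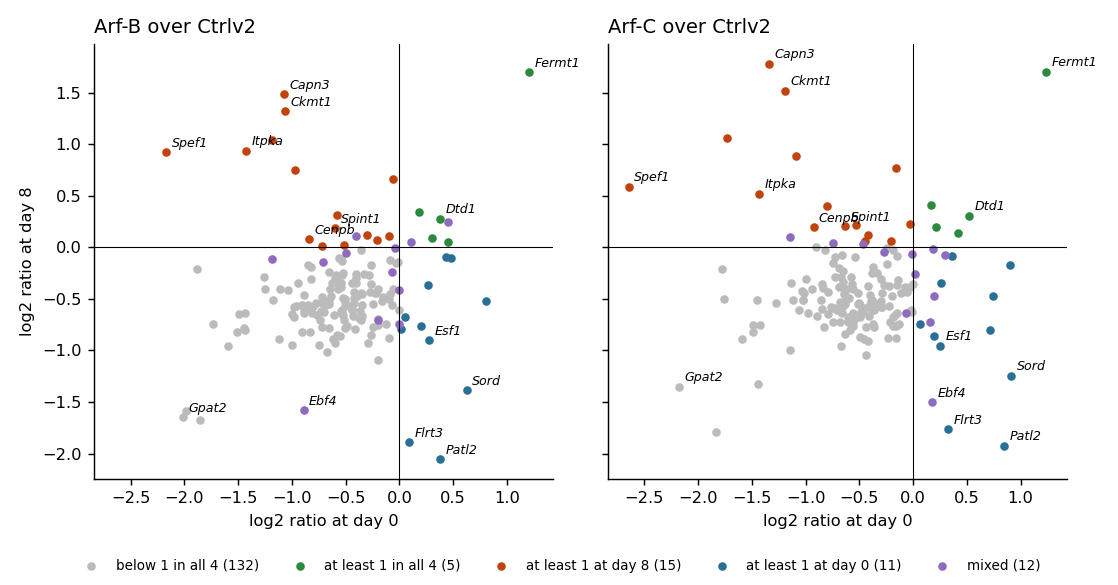
Log2 ratio of mean FPKM to Ctrlv2 at day 8 (y axis) against day 0 (x axis) for each of the 175 genes, in Arf-B (left) and Arf-C (right), coloured by class. The 132 genes below 1 in all 4 comparisons fill the lower left, the 15 at or above 1 only at day 8 lie upper left, and the 11 at or above 1 only at day 0 lie lower right.

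The opposite pattern, at or above Ctrlv2 at day 0 and below it at day 8, was held by 11 genes: Inafm2, Knl1, Mga, Patl2, Sord, Slc30a4, Myef2, Cops2, Trpm7, Esf1 and Flrt3. Here too the direction of the difference of day responses follows from the class. Sord, the sorbitol dehydrogenase of the polyol pathway, had 16.8, 16.5 and 18.3 FPKM in Arf-B cells and 18.4, 18.5 and 20.1 in Arf-C cells at day 8, against 40.8, 45.1 and 49.2 in Ctrlv2. At day 0 it had 25.1, 24.0 and 20.0 FPKM in Arf-B cells and 30.2, 26.3 and 27.8 in Arf-C cells, against 16.8, 12.6 and 15.3 in Ctrlv2. No libraries overlap on either day. Sord fell in the Arf lines by log2 0.39 and 0.54 and rose in Ctrlv2 by 1.54 (differences of day responses -1.93 and -2.08, SE 0.143, adjusted p = 1.47e-07 and 5.7e-08).

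Patl2, an RNA-binding protein of oocytes, had 2.25, 2.67 and 2.45 FPKM in Arf-B cells and 1.96, 3.10 and 3.00 in Arf-C cells at day 8, against 9.35, 11.8 and 9.51 in Ctrlv2. The day 0 values were 12, 12.2 and 10.6 FPKM in Arf-B cells and 14.5, 17.8 and 15.8 in Arf-C cells, against 10.8, 7.13 and 8.76 in Ctrlv2. It fell in both Arf lines, by log2 1.86 and 2.22, while in Ctrlv2 the change was 0.19 (adjusted p = 0.242; differences -2.05 and -2.41, adjusted p = 1.85e-06 and 3.2e-07). The annotation of Patl2 overlaps that of B2m on the other strand, which averaged 128 FPKM, and the deposited counts are not stated to use strand.

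Flrt3, a transmembrane protein required for migration of the early endoderm in mouse embryos, had 0.636 to 0.891 FPKM in Arf-B cells and 0.691 to 0.991 in Arf-C cells at day 0, against 0.513 to 0.815 in Ctrlv2. At day 8 it had 8.25, 9.08 and 7.94 FPKM in Arf-B cells and 9.38, 9.53 and 8.59 in Arf-C cells, against 35.1, 30.3 and 28.2 in Ctrlv2. It rose by log2 2.43 in Arf-B, 2.44 in Arf-C and 4.24 in Ctrlv2, on the log2(FPKM + 1) scale that understates changes of low genes (differences -1.81 and -1.80, adjusted p = 1.81e-07 and 1.52e-07). Ebf4, a transcription factor of the early B-cell factor family, is in the mixed class and had 6.17, 7.21 and 7.38 FPKM in Arf-B cells and 7.61, 7.60 and 6.73 in Arf-C cells at day 8, against 22.1, 20.0 and 20.1 in Ctrlv2, and 0.127 to 0.509 FPKM over the 9 libraries at day 0 (differences -1.25 and -1.44, adjusted p = 1.17e-06 and 2.33e-07). Its ratios were 0.334 and 0.353 at day 8 and 0.539 and 1.13 at day 0. The size of its differences is on the log2(FPKM + 1) scale and depends on the pseudocount at these day 0 levels.

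The Ctrlv2 libraries at day 0 spread widely for several of these genes. Knl1, the scaffold of the outer kinetochore, had 12.8, 11.1 and 11.2 FPKM in Arf-B cells and 12.8, 9.03 and 11.6 in Arf-C cells at day 0, against 3.05, 11.5 and 5.45 in Ctrlv2. Esf1, a nucleolar factor of ribosomal RNA processing, had 21.4, 25 and 21 FPKM in Arf-B cells and 22.7, 20.9 and 22.4 in Arf-C cells at day 0, against 9.07, 30.0 and 16.5 in Ctrlv2. In both genes Ctrlv2 replicate 1 was the lowest and replicate 2 the highest of the 3, and the Arf values lay inside or near their range. Replicate 2 exceeded replicate 1 of Ctrlv2 at day 0 by over 1.5 times in 7 of these 11 genes, against 15 of all 175 members and 7.82% of other coding genes. Without Ctrlv2 replicate 1 at day 0 the class held 8 genes, with Cops2, Esf1, Flrt3, Slc30a4 and Trpm7 leaving it and Slc20a1 and Exd1 joining, and without replicate 2 it held 17. Knl1 kept its class in all 18 fits that left out 1 library. The difference of day responses of Esf1 (-1.27 and -1.29, adjusted p = 0.0151 and 0.0118) was -0.86 and -0.89 without replicate 1 of Ctrlv2 at day 0, and the rise of Esf1 in Ctrlv2 (log2 0.68, adjusted p = 0.0307) became 0.27 (adjusted p = 0.174) without replicate 1 and 1.09 without replicate 2.

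**Figure D5:**
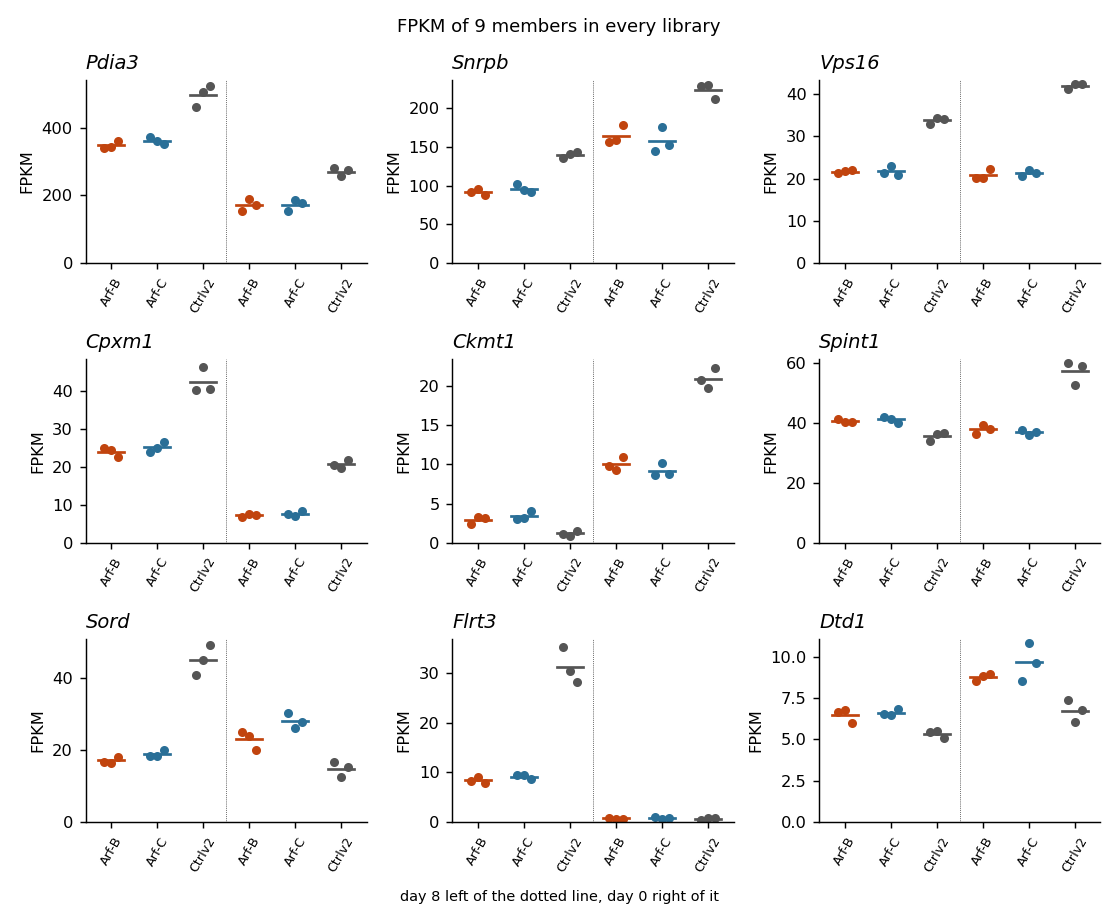
FPKM (y axis, linear, from 0) of 9 genes of the stretch in every library, with day 8 left and day 0 right of the dotted line and Arf-B, Arf-C and Ctrlv2 side by side; points are libraries and bars are means of 3. Pdia3, Snrpb, Vps16 and Cpxm1 lie below Ctrlv2 on both days, Ckmt1 and Spint1 change order between days, Sord and Flrt3 lie below Ctrlv2 at day 8, and Dtd1 lies above it on both days. The 9 genes were chosen after their values were seen.

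Many members changed with differentiation in each line, as did many of the 17200 genes tested. From day 0 to day 8, 52 members rose and 88 fell in Arf-B, 50 and 84 in Arf-C, and 53 and 81 in Ctrlv2 (of all genes tested, 32.9%, 32.8% and 33.9% rose and 33.8%, 33.8% and 34.4% fell). In all 3 lines 40 members rose (23.5% of all genes) and 65 fell (23.6%), and the median change of the members was log2 -0.25, -0.20 and -0.15, against -0.02, -0.02 and -0.01 over all genes. The genes tested were not limited to coding genes and include lower levels, from 0.5 FPKM in 3 libraries, so they are not matched to the members. Ranked by the smallest change over the 3 lines among members with at least 5 FPKM, the largest rises after those of Ebf4 and Flrt3 were those of Chst14, a dermatan sulfotransferase (log2 2.22, 2.04 and 2.28 in Arf-B, Arf-C and Ctrlv2), Bahd1, a heterochromatin protein (1.79, 1.65 and 1.85), and Prnp (2.14, 2.38 and 1.46). The largest falls by the same rank and level were those of Slc20a1, a sodium-phosphate transporter (-2.54, -2.69 and -1.88), Itpka, Nusap1 (-1.59, -1.67 and -1.39), Ckmt1 and Zc3h8, a zinc finger protein (-1.20, -1.19 and -1.15).

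Chst14 and Bahd1 rose in all lines and read lower in the Arf lines on both days. Chst14 averaged 8.57 ± 0.772 FPKM in Arf-B cells and 8.35 ± 0.770 in Arf-C cells at day 8, against 11.9 ± 0.630 in Ctrlv2, and 1.07 ± 0.342 and 1.27 ± 0.163 FPKM at day 0, against 1.66 ± 0.241 (SD, n = 3 each). Bahd1 averaged 11.4 ± 0.466 FPKM in Arf-B cells and 12.2 ± 1.52 in Arf-C cells at day 8, against 20.1 ± 0.512 in Ctrlv2, and 2.59 ± 0.107 and 3.18 ± 0.447 FPKM at day 0, against 4.85 ± 0.444. Differences of day responses were -0.07 and -0.25 for Chst14 and -0.07 and -0.20 for Bahd1, none of them called (adjusted p = 0.783, 0.231, 0.729 and 0.226).

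Day responses differed from Ctrlv2 upwards for 38 members in Arf-B (17.5% of all genes were called in that direction) and 45 in Arf-C (19.4%), and downwards for 29 (16.1%) and 37 (18.9%). Both differences were called upwards for 36 members (14.8% of all genes) and downwards for 27 (14%). The median difference over the members was log2 0.02 in both lines, against 0.01 and 0.00 over all genes.

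Arranged by role, the genes placed on the membrane traffic and ubiquitin lists all followed, where 132 of all 175 members did (75.4%). This depends on the placing of genes. Kif16b was put on the mitotic list and Cops2 on that of RNA and protein synthesis, and neither followed. Kif16b is a kinesin of early endosomes, and with it on the membrane traffic list not all genes there would have followed. Cds2 and Crls1, enzymes of phospholipid synthesis, were counted on the membrane traffic list. Of 15 members on the membrane traffic list 15 were below 1 in all 4 comparisons, with median ratios of 0.644 in Arf-B cells and 0.655 in Arf-C cells at day 8 and 0.703 and 0.727 at day 0. The 5 genes on the ubiquitin list, Ubr1, Usp8, Ubox5, Rnf24 and Rbbp9, had the lowest medians of the 6 lists at day 8, 0.594 and 0.590. Both medians are the ratios of Rbbp9, a serine hydrolase, so they do not describe ubiquitin genes alone. Of 18 genes of RNA and protein synthesis 15 followed, of 20 genes of replication, repair and mitosis 14, of 16 genes of signalling, adhesion and matrix 11, and of 19 metabolic genes 11. The mitotic list had the ratios nearest 1 at day 0, with medians of 0.831 and 0.791, and the signalling list the lowest, at 0.586 and 0.635. The lists were drawn up with results of these data known and their counts are descriptions.

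Some members encode subunits of complexes whose other subunits are encoded elsewhere in the genome. All 3 HOPS subunits of the stretch were low. Vps16 had 21.3, 21.7 and 22.0 FPKM in Arf-B cells and 21.2, 23.0 and 20.9 in Arf-C cells at day 8, against 32.8, 34.4 and 34.1 in Ctrlv2, and 20.2, 20.2 and 22.3 in Arf-B cells and 20.7, 22.0 and 21.3 in Arf-C cells at day 0, against 41.1, 42.2 and 42.2 in Ctrlv2. Vps16 kept 1 level in the Arf lines (log2 0.05 and 0.02) and fell by 0.30 in Ctrlv2. The median ratios of Vps16, Vps18 and Vps39 were 0.566 and 0.586 at day 8 and 0.562 and 0.562 at day 0, while those of their partners Vps11, Vps33a and Vps41 were 0.889 and 0.953 at day 8 and 1.23 and 1.25 at day 0. Pced1a overlaps Vps16 on the other strand, at 3.15 against 26.9 FPKM.

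Outside the stretch the 102 partner subunits of 13 complexes had median ratios of 1.03, 1.03, 1.01 and 1.02 (over the 101 with at least 1 FPKM). In the Arf-B and Arf-C lines at day 8, 16 and 16 of them were called higher and 15 and 15 lower, and at day 0, 23 and 25 higher and 17 and 24 lower, where the shares of all genes were those given above. Anapc1, the largest subunit of the anaphase-promoting complex, had ratios of 0.677, 0.673, 0.785 and 0.754, and its 13 partners had medians of 1.05, 1.06, 1.06 and 1.03. Srp14 of the signal recognition particle had 0.649, 0.641, 0.615 and 0.677, Sec23b of the COPII coat 0.641, 0.655, 0.569 and 0.612, and Polr3f of RNA polymerase III 0.705, 0.727, 0.703 and 0.755. The medians of their partners were 0.991 to 1.06, 0.959 to 1.16 and 0.947 to 0.999.

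The remaining subunits ranged more widely. Idh3b, the beta subunit of mitochondrial isocitrate dehydrogenase, had 0.581 and 0.586 at day 8 and 0.706 and 0.738 at day 0, Haus2 of the augmin complex 0.589, 0.609, 0.715 and 0.659, Tubgcp4 of the gamma-tubulin ring 0.637, 0.647, 0.692 and 0.725, and Ino80, the ATPase of its remodelling complex, 0.828, 0.771, 0.823 and 0.749. Snrpb2, a protein of the U2 particle, had 0.834, 0.841, 0.754 and 0.792. Eif3j1, a subunit of translation factor eIF3, had 0.599, 0.597, 0.920 and 0.771, and Cops2 of the COP9 signalosome 0.625, 0.596, 1.04 and 1.04. Over the 4 comparisons the partner medians ran from 0.911 to 1.04 for Idh3b, 0.850 to 1.27 for Haus2 and 0.941 to 1.16 for Tubgcp4. They were 0.950 to 1.09 for Ino80, 0.829 to 1.09 for Snrpb and Snrpb2 together, 0.908 to 0.946 for Eif3j1 and 1.02 to 1.07 for Cops2. Idh3b, Haus2, Tubgcp4, Eif3j1 and Cops2 are among the 43 members whose annotation overlaps that of a gene at a level worth considering beside their own (over 10% of their FPKM).

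Bub1b and Bub1, proteins of the mitotic spindle checkpoint, both followed, with different changes between days. Bub1b had ratios of 0.931 and 0.948 at day 8 and 0.679 and 0.634 at day 0, and its fall with differentiation was smaller in the Arf lines (log2 -0.89 and -0.76) than in Ctrlv2 (-1.34; differences 0.46 and 0.58, adjusted p = 0.0012 and 0.000142). With every library scaled to the same FPKM sum, Bub1b was below 1 in 2 of the 4 comparisons only. Bub1 had 0.753 and 0.764 at day 8 and 0.959 and 0.978 at day 0, where the 6 Arf libraries read 38.7 to 42.8 FPKM and the Ctrlv2 libraries 29.4, 52.7 and 45.1. Of 13 partners of Bub1, Bub1b and Knl1 elsewhere, 6 and 3 were called higher and 2 and 2 lower at day 8, and 8 and 8 higher and 1 and 1 lower at day 0, in Arf-B and Arf-C. Of all genes 16.3% and 16.8% were called higher and 16.9% and 16.8% lower at day 8, and 19.1% and 21.2% higher and 20% and 21.5% lower at day 0.

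Arf-B and Arf-C differed from each other at few genes of the stretch. At day 8 limma called 0 of the 175 in either direction (unadjusted p under 0.05 for 0 higher and 1 lower in Arf-B, lowest adjusted p = 0.88), where 0.0349% of all genes were called higher and 0.0233% lower. At day 0 it called 1 higher, Dstn, and 1 lower, Slc30a4 (0.105% and 0.238% of all genes). Dstn, the actin-depolymerising factor destrin, had 169, 197 and 191 FPKM in Arf-B cells and 133, 145 and 142 in Arf-C cells at day 0, with no overlap (log2 0.40, SE 0.0634, adjusted p = 0.00996). Without replicate 3 of Arf-B at day 0 the adjusted p was 0.0652, and it was 0.0539 or 0.0552 when Arf-C lacked its day 0 replicate 1 or 3, so the call rests on these libraries. Slc30a4, a zinc transporter, had 1.87, 1.66 and 1.73 FPKM in Arf-B cells and 3.40, 2.48 and 2.66 in Arf-C cells at day 0 (log2 -0.48, adjusted p = 0.037), and is named because it is the only one called in that direction. Over the fits that left out 1 library, 0 to 2 members were called.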

How the data were processed

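Expression was read from 1 deposited table of FPKM values for 54532 mouse genes in 18 libraries, made by the authors; per the submitters' processing notes HISAT2 and featureCounts were used with mm10, and whether counting used strand is not stated there. Columns were matched to samples by their labels. In limma 3.58.1 (R 4.3.3), 1 coefficient per group was fitted to log2(FPKM + 1) over all 18 libraries for the 17200 genes with at least 0.5 FPKM in 3 libraries, with empirical Bayes moderation (trend, robust), and Benjamini-Hochberg adjustment ran over all genes tested, at a threshold of 0.05. Ratios are of group means of FPKM without a pseudocount. All 413772 values above 0 were whole reads within 0.001, which gave the depth only: 3 reads on a gene of 1 kb are worth 0.0930 to 0.282 FPKM, and 6 members have a library with under 10 reads.

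The members and all lists were chosen with earlier results of these data known. Genes were named by rule: the 5 with ratios nearest the medians at 20 FPKM or more, the lowest and highest mean ratios at 5 FPKM or more, the largest differences of day response and day changes shared by all lines, members of the listed complexes, and the genes at the ends; all others (such as Capn3, Spef1, Ppp1r14d and Rhov) were named after their values were seen. The groupings by class, the counts of groups that do not overlap, the neighbouring runs and the spread of Ctrlv2 at day 0 were also chosen after seeing the data.

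The fit was tested on simulated data. It gave the right sign of change, but in several comparisons the share of false calls exceeded the threshold, most for the comparisons with Ctrlv2 at day 8 and the differences of day responses, and the pass criterion for the share of changes recovered was replaced after it failed. Adjusted p-values near the threshold should be read with this in mind. Same-numbered libraries did not deviate together (45 pairs, r from -0.251 to 0.203, median 0.00396). Alternatives were the pseudocount, the filter, the scaling, a replicate block and leaving out each library.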

Additional observations from a re-analysis of the deposited data

Results flagged for a closer look

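For 10 members the change between day 8 and day 0 differed between both Arf lines and Ctrlv2 by the test of the difference itself (limma, Benjamini-Hochberg over all 17200 genes), named as the 5 largest in each direction among members with at least 5 FPKM. The smaller of the 2 differences was 1.85 for Ckmt1 (Arf-B), 1.54 for Itpka (Arf-C), 0.86 for Cenpb (Arf-B), 0.76 for Spint1 (Arf-B) and 0.70 for Dnajc17 (Arf-C) on the log2 scale, each higher in the Arf lines. It was -2.05 for Patl2 (Arf-B), -1.93 for Sord (Arf-B), -1.80 for Flrt3 (Arf-C), -1.27 for Esf1 (Arf-B) and -1.25 for Ebf4 (Arf-B), each lower in the Arf lines. Those of Flrt3, Ebf4, Itpka and Ckmt1 depend in size on the pseudocount of the log2(FPKM + 1) scale. Flrt3 and Ebf4 lie below 1 FPKM at day 0. In Ctrlv2 at day 8 Itpka had 0.892 to 0.999 FPKM and Ckmt1 had 0.905 to 1.55. Both differences of a gene use the same 6 Ctrlv2 libraries. Each is also the change between days of the ratio to Ctrlv2, on which the class of the gene rests. That of Esf1 was -0.86 without replicate 1 and -1.68 without replicate 2 of Ctrlv2 at day 0. The stem cell and extraembryonic endoderm marker sums also differed between the lines, and their part in these differences was not tested.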

How the results depend on the processing

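The median ratio of the stretch stayed below 1 in all 4 comparisons under every alternative run. With 1 library left out, the uncalled differences of day responses of Chst14 (-0.14 to 0.07 in Arf-B) and Zc3h8 (-0.21 to 0.10 in Arf-B, -0.24 to 0.16 in Arf-C) changed sign. Taken as a difference of mean log2(FPKM + 1), the median log2 ratios were -0.4499 and -0.4383 for the Arf-B and Arf-C lines at day 8, then -0.4420 and -0.4379 at day 0. With all libraries scaled to the same FPKM sum they were -0.3949, -0.4254, -0.4940 and -0.4638, a scaling that moved the median of the other genes by 0.122, 0.0875, 0.0320 and 0.0311. Under that scaling 8 genes were at or above 1 in all 4 comparisons. It gave 20 members a different number of ratios below 1 than the deposited values did, Bub1b, Mga and Zc3h8 among them. Over the 124 genes with at least 5 FPKM, 3 were at or above 1 throughout, 7 at day 8 only and 7 were mixed. Leaving out 1 library gave 8 to 17 genes at or above 1 at day 0 only, the highest without replicate 2 of Ctrlv2 at day 0. Members called between Arf-B and Arf-C at day 0 numbered 1 with no filter, 1 with equal-sum scaling and 1 with the replicate block, against 2 without these, and 0 to 2 with 1 library left out; the replicate block changed no other count by over 1.5 times. Depth limits the genes near 1 FPKM, where the ratios spread most.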
